A study of Mus musculus with 26 samples.

Results

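The nuclear genome encodes most subunits of the respiratory chain, and 86 such genes of the 40413 in the count table are described here in left ventricle of BPH/2J and BPN/3J mice. They are the rows whose symbol begins as a gene of complex I (Ndufa, Ndufb, Ndufc, Ndufs, Ndufv), complex II (Sdha to Sdhd), complex III (Uqcr, Cyc1), complex IV (Cox4 to Cox8) or complex V (Atp5). Of 93 matching rows, 1 named as a pseudogene (Ndufs5-ps) and 6 with a mean under 1 CPM (counts scaled to a common library total) were left out. The pattern does not reach Ndufab1. The highest of the 6 was Cox6b2 at 0.447 CPM, and the lowest members were Ndufb4b at 2.54 CPM and Ndufb4c at 3.22 CPM. By complex, 38 members belong to complex I, 4 to complex II, 9 to complex III, 17 to complex IV (Ndufa4 and Ndufa4l2 included) and 18 to complex V.

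BPH/2J is an inbred hypertensive strain and BPN/3J its normotensive counterpart. Adult mice of both strains were injected intraperitoneally with 50 mg/kg of Cmpd17b a day, a small-molecule agonist of formylpeptide receptors, or with its vehicle, over 28 days. The groups used were BPH/2J given Cmpd17b (6 libraries), BPH/2J given vehicle (7), BPN/3J given Cmpd17b (5) and BPN/3J given vehicle (7). Each library carries its own animal identifier, and neither age in weeks nor sex is in the labels used here. The study asked whether receptor activation changes the hypertensive phenotype, so the comparisons are Cmpd17b against vehicle within each strain, BPH/2J against BPN/3J within each treatment, and the difference of the Cmpd17b effect between strains.

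The respiratory chain passes electrons from NADH (complex I) and succinate (complex II) through ubiquinone, complex III and cytochrome c to oxygen at complex IV, and complexes I, III and IV pump protons across the inner mitochondrial membrane. Complex V, the ATP synthase, uses that gradient to make most of the ATP of the beating heart. Complexes I, III, IV and V each combine nuclear-encoded subunits with subunits encoded by mitochondrial DNA (mtDNA), while complex II is wholly nuclear-encoded. Several complex IV subunits have a heart and muscle isoform beside a ubiquitous isoform. The transcription factors NRF1, GABPA, YY1, the estrogen-related receptors and the coactivator encoded by Ppargc1a are known regulators of these nuclear genes.

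Total counts ranged from 25476100 to 48648200 per library (median 34804900). The labels give 2 batches, and batch 2 held 5 of the 25 libraries: BPH/2J Cmpd17b replicate 6, BPH/2J vehicle replicates 1 and 7, and BPN/3J vehicle replicates 1 and 2. The 13 mtDNA-encoded subunits took 30.6% to 37.7% of counts in batch 1 and 25.4% to 32.0% in batch 2, and the 86 nuclear subunits took 3.77% to 4.63% in batch 1 and 4.003% to 5.23% in batch 2. Summed ventricular cardiomyocyte markers lay between 36000.3 and 55995.1 CPM in all 25 libraries. BPH/2J Cmpd17b replicate 7, labelled left ventricle, was left out: it had 39.3 CPM of these markers and 33292 CPM of kidney tubule markers, against 0.685 to 155 CPM of the tubule markers in the others. Its 86 subunits summed to 20904 CPM, against 37650 to 52304 CPM elsewhere on the same unscaled CPM. Values of the strain comparisons and isoform ratios with it included are given among the processing alternatives.

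The start regions of 4 members named in the strain results are printed from RefSeq (mouse GRCm38.p6, an earlier build than the GRCm39 named for the counts). Each window runs from 250 bases before to 50 bases after the annotated start, 5′ to 3′ on the gene's strand, with capitals marking every match, on either strand, to 5 motifs written as NRF1 (GCGCA, any base, GCGC), GABPA ACTTCCG, YY1 AANATGGCG, estrogen-related receptor TNAAGGTCA and MEF2 (CTA, any 4 bases, TAG). Uqcrc1 (chr9:108936398-108936697, plus strand) encodes core protein 1 of complex III, and its capitals mark NRF1 letters. Ndufa11 (chr17:56717512-56717811, plus strand) encodes an accessory subunit in the membrane arm of complex I, and its capitals mark NRF1 letters. Cox8a (chr19:7217567-7217866, minus strand) and Cox8b (chr7:140900397-140900696, minus strand) encode the ubiquitous and the heart and muscle isoform of a small complex IV subunit, shown because their strain differences point opposite ways. The capitals in Cox8a mark GABPA letters, and the Cox8b window held none of the 5 motifs.
Uqcrc1: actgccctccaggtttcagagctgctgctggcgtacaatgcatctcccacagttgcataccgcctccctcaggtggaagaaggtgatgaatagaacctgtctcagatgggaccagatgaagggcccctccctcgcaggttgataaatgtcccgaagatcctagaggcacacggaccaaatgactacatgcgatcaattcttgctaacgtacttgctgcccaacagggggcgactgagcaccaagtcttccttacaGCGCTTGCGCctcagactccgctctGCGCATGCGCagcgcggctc
Ndufa11: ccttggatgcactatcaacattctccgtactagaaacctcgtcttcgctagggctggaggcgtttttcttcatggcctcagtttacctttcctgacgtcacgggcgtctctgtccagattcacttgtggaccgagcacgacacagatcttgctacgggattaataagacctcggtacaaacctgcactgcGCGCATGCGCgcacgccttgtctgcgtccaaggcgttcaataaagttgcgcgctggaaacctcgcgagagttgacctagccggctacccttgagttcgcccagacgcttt
Cox8a: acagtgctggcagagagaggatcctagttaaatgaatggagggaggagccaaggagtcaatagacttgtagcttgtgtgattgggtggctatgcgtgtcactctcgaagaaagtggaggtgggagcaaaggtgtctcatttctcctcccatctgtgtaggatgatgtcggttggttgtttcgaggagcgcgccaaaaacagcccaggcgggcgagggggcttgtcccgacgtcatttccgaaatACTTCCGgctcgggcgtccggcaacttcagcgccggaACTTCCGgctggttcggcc
Cox8b: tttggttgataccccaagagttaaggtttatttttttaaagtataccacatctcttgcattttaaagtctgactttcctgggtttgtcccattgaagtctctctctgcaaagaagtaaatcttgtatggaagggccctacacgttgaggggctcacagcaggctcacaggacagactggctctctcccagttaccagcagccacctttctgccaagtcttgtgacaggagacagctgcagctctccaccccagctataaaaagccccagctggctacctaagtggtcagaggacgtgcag

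A start window was found for 67 of the 86 members and for 27025 genes in all. A gene was counted if any of its windows held a match. NRF1 letters were in 17 of the 67 (25.4%), among them Sdha, Sdhd, Ndufs6 and Cox6a1, against 5.19% of the 27025 genes. YY1 letters were in 10 (14.9%, against 2.76%), GABPA letters in 10 (14.9%, against 7.2%), estrogen-related receptor letters in 3 (4.48%, against 1.43%: Atp5mc3, Ndufb4 and Sdhd) and MEF2 letters in 1 (1.49%, against 4.23%: Cox5b). Of the 4 windows shown, Uqcrc1 and Cox8a held 2 matches each and Ndufa11 held 1. Among members called between strains but not shown, the windows of Ndufa3, Ndufb5, Ndufc2 and Atp5f1e held none of the motifs. That of Ndufs3 held GABPA letters. A match describes letters only and is not a measured binding site.

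Levels per kilobase of transcript (CPM scaled by TMM, divided by the median annotated transcript length, available for 80 members) were used to set genes side by side. Atp5f1b, the catalytic beta subunit of the ATP synthase, averaged 2444 CPM per kb in BPH/2J Cmpd17b, 2481 in BPH/2J vehicle, 2747 in BPN/3J Cmpd17b and 2509 in BPN/3J vehicle. Cox4i1, the main isoform of the largest nuclear subunit of complex IV, averaged 1793, 1935, 2043 and 2188 CPM per kb in the same order of groups. Each heart isoform of complex IV exceeded its ubiquitous partner. Cox6a2 averaged 1284 to 1473 CPM per kb over the groups against 92.7 to 113 for Cox6a1, Cox7a1 566 to 883 against 271 to 315 for Cox7a2, and Cox8b 477 to 720 against 123 to 153 for Cox8a. Cox4i2, the lung-enriched isoform, averaged 8.17 to 10.6 CPM per kb, and Ndufa4l2, a hypoxia-inducible relative of the complex IV subunit Ndufa4, 14.9 to 19.9 against 1043 to 1325 for Ndufa4.

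Summed over all 86 members, the level was 38924 ± 3501 CPM in BPH/2J Cmpd17b, 41620 ± 3581 in BPH/2J vehicle, 42363 ± 3063 in BPN/3J Cmpd17b and 44113 ± 3550 in BPN/3J vehicle (SD, n = 6, 7, 5 and 7 libraries). Complex I summed to 8720 ± 718, 9448 ± 1089, 9453 ± 670 and 10443 ± 1278 CPM in the same order. Complex IV summed to 6149 ± 291, 7005 ± 985, 6627 ± 672 and 7523 ± 1136 CPM. The ranges of all groups overlapped in both complexes. Complex III summed to 5047 ± 522, 5309 ± 396, 5604 ± 455 and 5731 ± 398 CPM. Complex V summed to 16444 ± 1806, 17207 ± 1172, 17983 ± 1125 and 17936 ± 1211 CPM, and complex II to 2564 ± 310, 2652 ± 173, 2696 ± 179 and 2479 ± 482 CPM, and the ranges of all groups overlapped in complexes II, III and V as well. The mtDNA-encoded subunits summed to 330335 ± 63670, 304147 ± 28107, 371462 ± 33369 and 331747 ± 35979 CPM. CPM without TMM scaling put the strain difference under Cmpd17b of the sum over all members at -0.03 on the log2 scale, against -0.12 with TMM, and that of complex IV at -0.004, against -0.11. That of complex II changed sign, at 0.02 without TMM and -0.07 with it. The sum of complex V differed by -0.07 without TMM for Cmpd17b against vehicle in BPN/3J, against 0.004 with it, and by -0.004 between strains under vehicle, against -0.06. All these group means pool both batches with no batch term, and BPN/3J Cmpd17b has no batch 2 library. Over all members, the batch 2 libraries of BPN/3J vehicle summed to 49587 and 46005 CPM, those of batch 1 to 39917 to 47246. BPH/2J Cmpd17b replicate 6, also of batch 2, was the lowest of its group at 32937 CPM. These sums are descriptions and carry no test, and in bulk tissue fewer cells of a type and less RNA per cell cannot be told apart.

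**Figure D1:**
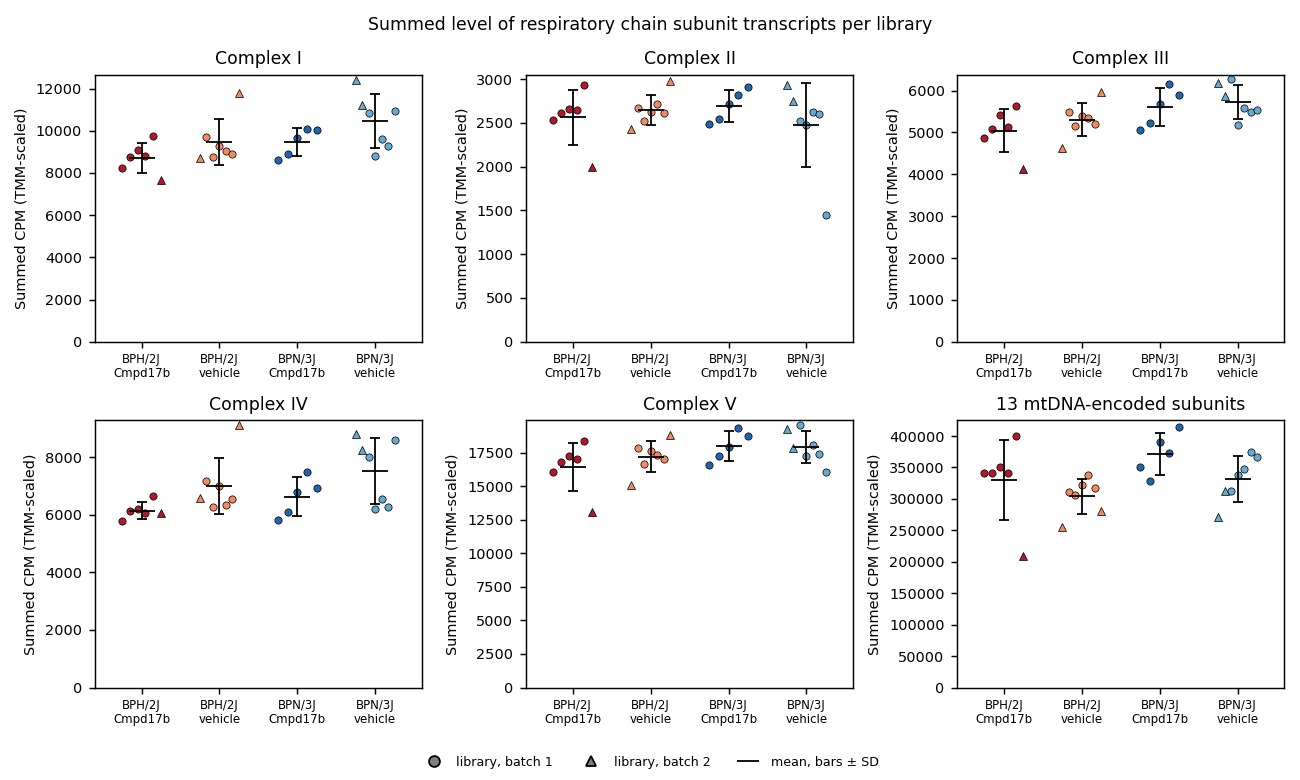
Summed CPM (TMM-scaled, linear axis) of the subunits of complexes I to V and of the 13 mtDNA-encoded subunits, 1 point per library, circles for batch 1 and triangles for batch 2, with group mean and SD. Complex I averaged 8720 CPM in BPH/2J Cmpd17b and 10443 CPM in BPN/3J vehicle, the lowest and highest group means, with overlapping points. Group means pool both batches, and BPN/3J Cmpd17b has no batch 2 library.

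BPH/2J against BPN/3J under vehicle gave 6 members lower in BPH/2J and none higher, by edgeR's quasi-likelihood test with Benjamini-Hochberg adjustment over 15543 genes at 0.05. These 6 are 6.98% of the 86 members, all of which were tested, while 18.9% of all genes tested were called (9.73% lower, 9.16% higher), so the members' share lay under the background. At an unadjusted p under 0.05, 27 members (31.4%) stood beside 30.5% of all genes. The median log2 difference over members was -0.15, against -0.0008 over all genes, and 70 of the 86 values were below 0. By complex, the median was -0.21 in complex I, 0.06 in complex II, -0.12 in complex III, -0.18 in complex IV and -0.07 in complex V. Without BPN/3J vehicle replicate 7 the medians of complexes I to V were -0.14, -0.04, -0.10, -0.10 and -0.09, so that of complex II changed sign. Without BPH/2J vehicle replicate 7 they were -0.26, 0.03, -0.15, -0.22 and -0.13. With BPH/2J Cmpd17b replicate 7 included no member was called. With 1 of the other libraries left out in turn the number called was 2 to 18, the highest without BPH/2J vehicle replicate 7.

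The 3 members of complex I called were all accessory subunits of its membrane arm. Ndufa3 had a lowest, median and highest value of 90.4, 103 and 149.9 CPM in BPH/2J vehicle, against 101, 138 and 179 CPM in BPN/3J vehicle, a log2 difference of -0.36 ± 0.11 (SE; edgeR adjusted p = 0.0165). The ranges overlapped, with 3 of 7 BPN/3J libraries above every BPH/2J library. Ndufa11 had 185, 191 and 249.8 CPM in BPH/2J vehicle, against 182, 261 and 297 CPM in BPN/3J vehicle (log2 difference -0.32 ± 0.10, edgeR adjusted p = 0.0258). Here 4 of 7 BPN/3J libraries lay above every BPH/2J library, and 1 BPN/3J library lay below them all. Ndufb5 had 255, 279.9 and 407 CPM in BPH/2J vehicle, against 292, 359 and 477 CPM in BPN/3J vehicle (log2 difference -0.29 ± 0.10, edgeR adjusted p = 0.0344), and only 2 of 7 BPN/3J libraries stood clear of BPH/2J.

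The clearest separation under vehicle was in complex III. Uqcrc1 had 926, 1109 and 1166.2 CPM in BPH/2J vehicle, against 1165.7, 1268 and 1374 CPM in BPN/3J vehicle (log2 difference -0.23 ± 0.07, edgeR adjusted p = 0.0269). All but 1 of the 7 BPN/3J libraries exceeded every BPH/2J library. In complex IV, Ndufa4l2 had 9.998, 14.3 and 17.4 CPM in BPH/2J vehicle, against 13.4, 17.0 and 28.3 CPM in BPN/3J vehicle (log2 difference -0.39 ± 0.11, edgeR adjusted p = 0.0082). Its ranges overlapped for 5 of the 7 BPN/3J libraries, and its highest value was BPN/3J vehicle replicate 7. That library had 1045 CPM of endothelium markers, 979 of mural cell markers and 936 of fibroblast markers, against 396 to 500.1, 510.3 to 719 and 605 to 714 CPM in the rest of its group. Without it the log2 difference of Ndufa4l2 was -0.29 (edgeR adjusted p = 0.0168), and the part of these cells in the result was not tested. In complex V, Atp5f1e, the epsilon subunit in the central stalk of the ATP synthase, had 186, 237 and 433 CPM in BPH/2J vehicle, against 214, 330.0 and 472 CPM in BPN/3J vehicle (log2 difference -0.43 ± 0.14, edgeR adjusted p = 0.0341), with overlapping ranges. Without BPN/3J vehicle replicate 7 its log2 difference was -0.28 (adjusted p = 0.0953). Within batch 1 alone 2 members were called, Ndufa4l2 (lower) and 1 higher in BPH/2J that was not among the 6, and the 5 other calls had edgeR adjusted p from 0.0525 (Uqcrc1, log2 difference -0.21) to 0.0758 (Ndufa11, -0.30), with Ndufa3 at -0.35, Ndufb5 at -0.25 and Atp5f1e at -0.46.

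**Figure D2:**
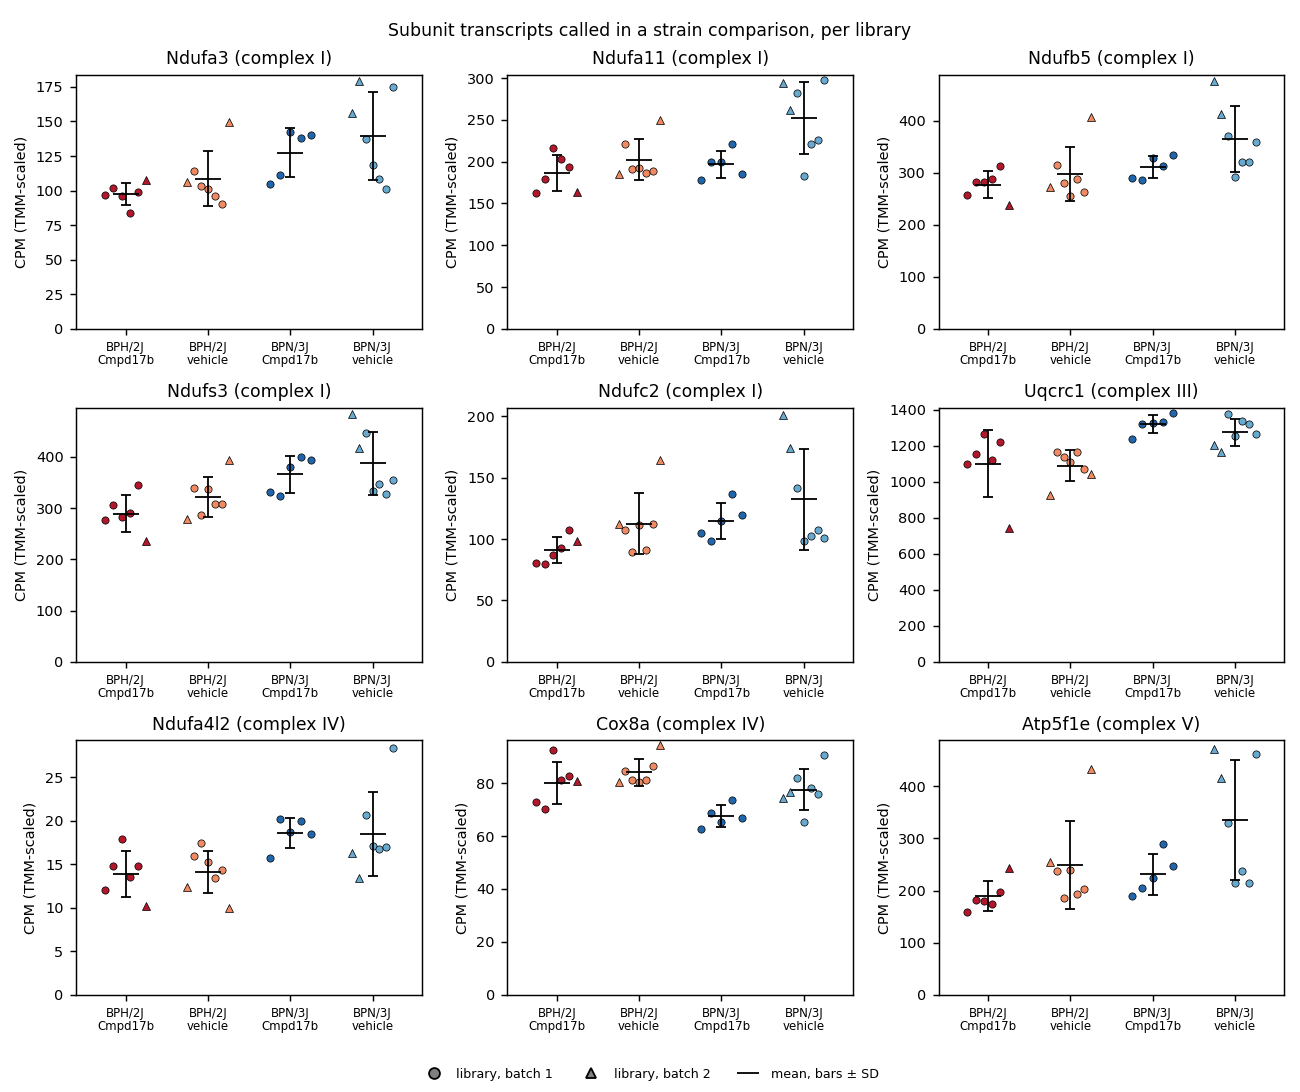
CPM (TMM-scaled, linear axes) of the members called in either strain comparison, 1 point per library in each of the 4 groups, circles for batch 1 and triangles for batch 2, with group mean and SD. Uqcrc1 was at 1165.7 CPM or more in every BPN/3J library and at 1166.2 CPM or less in BPH/2J vehicle, while the ranges of Ndufb5 and Atp5f1e overlapped widely.

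Under Cmpd17b, which uses other libraries of both strains, 4 members were lower in BPH/2J and 1 was higher (5.81% of 86, edgeR), against 14.1% of all genes called (6.65% lower, 7.48% higher), again under the background. At an unadjusted p under 0.05 there were 16 members (18.6%), against 25.1% of all genes. The median over members was -0.14, against 0.01 over all genes, and 75 of the 86 values were below 0. The medians by complex were -0.16, -0.10, -0.11, -0.14 and -0.13 for complexes I to V. No member was called with the left-out library included, and 1 to 6 were called with 1 other library left out in turn, 1 without BPH/2J Cmpd17b replicate 6 or BPN/3J Cmpd17b replicate 5.

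Ndufa3 was lower again: its lowest, median and highest values were 84.1, 98.2 and 108 CPM in BPH/2J Cmpd17b, against 105, 111, 143, 138 and 140.2 CPM in the 5 BPN/3J Cmpd17b libraries (log2 difference -0.44 ± 0.12, edgeR adjusted p = 0.0123). All but 1 of these 5 lay above every BPH/2J library. Ndufc2, another accessory subunit of the complex I membrane arm, had 79.9, 89.8 and 107 CPM in BPH/2J Cmpd17b, against 105, 98.4, 115, 136 and 119.5 CPM in BPN/3J Cmpd17b (log2 difference -0.42 ± 0.13, edgeR adjusted p = 0.0232). Ndufs3, a core subunit of the arm that hands electrons to ubiquinone, had 236, 286 and 345 CPM in BPH/2J Cmpd17b, against 331, 323, 380.0, 400.4 and 394 CPM in BPN/3J Cmpd17b (log2 difference -0.35 ± 0.11, edgeR adjusted p = 0.0374). For both genes 3 of 5 BPN/3J libraries stood clear of BPH/2J. Ndufa4l2 had 10.2, 14.1 and 17.9 CPM in BPH/2J Cmpd17b, against 15.7, 20.2, 18.7, 19.9 and 18.5 CPM in BPN/3J Cmpd17b (log2 difference -0.36 ± 0.12, edgeR adjusted p = 0.0468), with 4 of 5 clear of BPH/2J.

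Cox8a, the ubiquitous isoform, was the only member called higher in BPH/2J under Cmpd17b. It had 70.4, 80.9 and 92.5 CPM in BPH/2J Cmpd17b, against 62.8, 68.6, 65.2, 73.7 and 66.9995 CPM in BPN/3J Cmpd17b (log2 difference 0.24 ± 0.08, edgeR adjusted p = 0.0453), and 4 of 6 BPH/2J libraries exceeded every BPN/3J library. Ndufs4, an accessory subunit of the NADH-oxidizing arm named after its value was seen, came just short of the threshold at -0.32 (adjusted p = 0.0564), and its 5 BPN/3J values all exceeded the BPH/2J range. Uqcrc1 was at -0.23 (adjusted p = 0.0669), with 744, 1136 and 1263 CPM in BPH/2J Cmpd17b, against 1239, 1320, 1328, 1333 and 1380 CPM in BPN/3J Cmpd17b, and 4 of 5 clear. The low end of the BPH/2J range of Uqcrc1 was replicate 6, the batch 2 library. Within batch 1 alone Ndufa3 and Ndufc2 were called, while adjusted p was 0.056 for Ndufs3 (log2 difference -0.29), 0.0812 for Ndufa4l2 (-0.36) and 0.0834 for Cox8a (0.24).

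The strain comparisons under vehicle and under Cmpd17b share no library. Of the 86 members, 66 (76.7%) were below 0 in both, against 34.5% of all genes tested. Called in both in the same direction were 2 members, Ndufa3 and Ndufa4l2 (2.33%), against 10.8% of all genes. Of the other catalytic and core subunits named here, none was called. Under vehicle and under Cmpd17b the log2 differences were -0.13 and -0.18 for Ndufv1, which binds the NADH-oxidizing flavin, 0.01 and -0.25 for Ndufs1, an iron-sulfur subunit of the same arm, and -0.11 and -0.14 for Sdhb, the iron-sulfur subunit of complex II. Uqcrfs1, the Rieske iron-sulfur protein of complex III, was at -0.12 and -0.28 (edgeR adjusted p = 0.0826 under Cmpd17b), Cyc1, cytochrome c1, at -0.12 and -0.08, and Cox5a, a nuclear subunit of complex IV, at -0.11 and -0.09. Atp5f1a and Atp5f1b, the alpha and beta subunits of the F1 head of the ATP synthase, were at -0.03 and -0.17 and at -0.02 and -0.14.

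Some members pointed the other way without being called. Atp5if1, which inhibits ATP hydrolysis by complex V, averaged 117 CPM in BPH/2J Cmpd17b, 124 in BPH/2J vehicle, 90.6 in BPN/3J Cmpd17b and 105 in BPN/3J vehicle, with log2 strain differences of 0.23 under vehicle (edgeR adjusted p = 0.238) and 0.38 under Cmpd17b (0.104). Sdha, the flavoprotein of complex II, was at 0.23 under vehicle, but BPN/3J vehicle replicate 7 had 397 CPM against 1062 to 1220 CPM in the rest of that group, and under Cmpd17b the difference was -0.04.

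**Figure D3:**
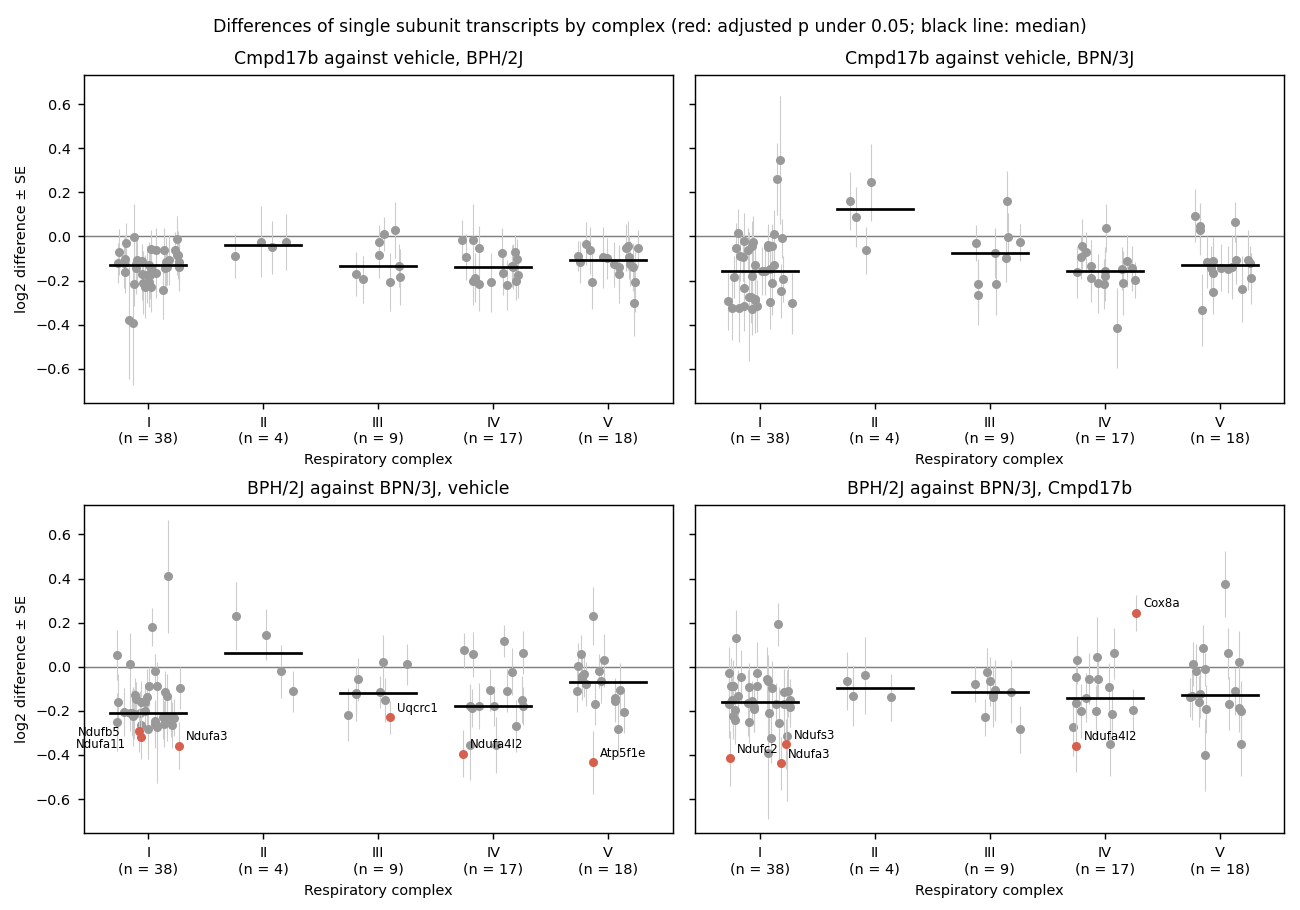
Log2 difference ± SE (edgeR) of each of the 86 members by complex in 4 comparisons, with called members in red and named, and the median of each complex as a black line. Most points lie below 0 in all 4 panels, and calls appear only in the strain panels, 6 under vehicle and 5 under Cmpd17b.

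Ratios of the heart isoform to its ubiquitous partner, and of the lung-enriched Cox4i2 to Cox4i1, were computed within each library. They therefore do not depend on scaling between libraries. Each was tested with a two-sided exact permutation test over libraries within batch, adjusted over 16 relations (4 ratios in 4 comparisons). The log2 ratio of Cox8b to Cox8a was 0.92, 1.24 and 1.92 (lowest, median, highest) in BPH/2J vehicle, against 1.252, 1.62 and 2.32 in BPN/3J vehicle, a within-batch difference of -0.38 (exact permutation p = 0.00265, adjusted 0.0423). Under Cmpd17b it was 0.94, 1.02 and 1.46 in BPH/2J, against 1.23, 1.27, 1.72, 1.62 and 1.57 in BPN/3J (difference -0.46, exact permutation p = 0.00794, adjusted 0.0423), where 0.00794 is the smallest p that 252 permutations can give. The ratio was lower in BPH/2J under both treatments, with 2 of 7 and 3 of 5 BPN/3J libraries above every BPH/2J library. With 1 library left out in turn, it stayed called in all 14 cases under vehicle. Under Cmpd17b it stayed called in 6 of 11 cases (exact permutation, adjusted p up to 0.0952).

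The log2 ratio of Cox7a1 to Cox7a2, heart and ubiquitous isoforms of another small complex IV subunit, was 0.34, 0.43 and 0.52 in BPH/2J Cmpd17b, against 0.64, 0.67, 0.87, 0.90 and 0.73 in BPN/3J Cmpd17b. All 5 BPN/3J libraries exceeded all 6 BPH/2J libraries (difference -0.34, exact permutation p = 0.00794, the smallest possible, adjusted 0.0423). With 1 library left out in turn, this difference stayed called in 7 of 11 cases (exact permutation, adjusted p up to 0.0635). Under vehicle the values were 0.39, 0.66 and 0.85 in BPH/2J, against 0.56, 0.74 and 1.38 in BPN/3J, with a difference of -0.23 that was not called (exact permutation, adjusted p = 0.116). The ratio of Cox6a2 to Cox6a1 differed by 0.24 under vehicle (exact permutation, adjusted p = 0.0804) and by -0.006 under Cmpd17b (0.96), and that of Cox4i2 to Cox4i1 by -0.11 (0.654) and 0.21 (0.206). In batch 1 alone the difference of Cox8b to Cox8a under vehicle was -0.34 (exact permutation, adjusted p = 0.0847). No BPN/3J Cmpd17b library is in batch 2, so both differences under Cmpd17b already rest on batch 1 and have no separate value there. Cox8b (360 nt), Cox8a (550 nt) and the other partners differ in transcript length, a property that moved with library deviations as described after the Cmpd17b results, and its part in these ratios was not tested.

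**Figure D4:**
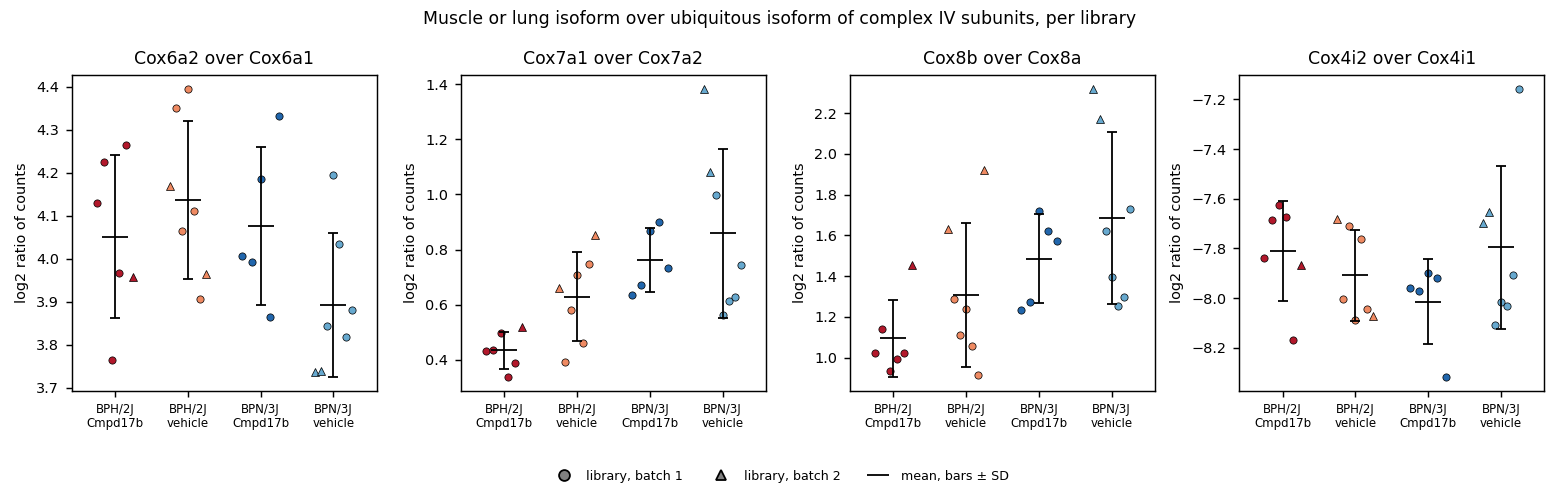
Log2 ratio of counts of 4 isoform pairs in each library by group (linear axis in log2 units), circles for batch 1 and triangles for batch 2, with group mean and SD. The Cox7a1 to Cox7a2 ratio of BPH/2J Cmpd17b, at most 0.52, lies below all BPN/3J Cmpd17b libraries, which start at 0.64.

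Cmpd17b against vehicle in BPH/2J called no member and no gene at all (0% of 15543, edgeR), and DESeq2 and limma voom called none either. At an unadjusted p under 0.05 there were 2 members beside 287 genes (1.85%) by edgeR, 4 members beside 324 genes by DESeq2 and 4 beside 604 by limma voom. The log2 differences nevertheless lay mostly on one side: 84 of the 86 members were below 0, against 49.1% of all genes, with a median of -0.12 against 0.002 and a range from -0.39 to 0.03. The median was -0.13 in complex I, -0.04 in complex II, -0.13 in complex III, -0.14 in complex IV and -0.11 in complex V. Without BPH/2J Cmpd17b replicate 6, of batch 2, the medians of complexes I to V were -0.07, 0.06, -0.07, -0.07 and -0.05. Without BPH/2J vehicle replicate 7, also of batch 2, that of complex I was -0.08. Without BPH/2J Cmpd17b replicate 5 it was further from 0, at -0.17. The smallest p was that of Cox6a2, the heart isoform of a complex IV subunit, with 832, 868 and 954 CPM in BPH/2J Cmpd17b, against 909.7, 937 and 1120 CPM in BPH/2J vehicle (log2 difference -0.20 ± 0.08, edgeR adjusted p = 1). The ranges overlapped, with 3 of 7 vehicle libraries above every Cmpd17b library. Ndufb6, an accessory membrane-arm subunit of complex I, was at -0.21, Atp5f1e at -0.30, Ndufc2 at -0.23 and Cox7c, a small complex IV subunit, at -0.22, each with an edgeR adjusted p of 1.

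The 95% intervals of the Cmpd17b effect on core subunits in BPH/2J ran from -0.22 to 0.11 for Atp5f1b, from -0.18 to 0.12 for Uqcrc1, from -0.22 to 0.10 for Ndufv1, from -0.14 to 0.16 for Cyc1 and from -0.34 to 0.29 for Sdha (edgeR, log2, n = 6 against 7, model fitted across all genes). The log2 ratio of Cox7a1 to Cox7a2 differed by -0.18 between BPH/2J Cmpd17b and BPH/2J vehicle (exact permutation p = 0.0251, adjusted 0.0804), with 5 of 7 vehicle libraries above every Cmpd17b library. The other 3 ratios differed by -0.14 to 0.10 with adjusted p of 0.206 or more (exact permutation).

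In BPN/3J, Cmpd17b against vehicle again called no member and no gene (0% of 15543, edgeR). DESeq2 called 1 gene, Nrgn, which is no member and was named after its value was seen, and limma voom called none. At an unadjusted p under 0.05, edgeR had 13 members (15.1%) beside 1506 genes (9.69%), DESeq2 17 members beside 1612 genes and limma voom 2 members beside 943 genes. Of edgeR's 13, 10 were in complex I, 2 in complex IV and 1 in complex V. The median over members was -0.14, against -0.01 over all genes, and 73 of 86 were below 0. The median was 0.12 in complex II, beside -0.16, -0.07, -0.16 and -0.13 in complexes I, III, IV and V. Without BPN/3J vehicle replicate 7 it was -0.003 in complex II. That library had 397 CPM of Sdha, 205 of Sdhc and 221 of Sdhd, against 1062 to 1220, 377 to 534 and 398 to 461 CPM in the rest of its group.

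Ndufa11 had the smallest p. Its values were 178, 200.02, 199.97, 221 and 185 CPM in BPN/3J Cmpd17b, against a lowest, median and highest of 182, 261 and 297 CPM in BPN/3J vehicle (log2 difference -0.33 ± 0.11, edgeR adjusted p = 0.514). All but 1 of the 7 vehicle libraries exceeded all 5 Cmpd17b libraries. Next came Ndufs7, the core subunit that carries the last iron-sulfur cluster before ubiquinone, at -0.31, the accessory complex I subunits Ndufa6 at -0.31 and Ndufs6 at -0.30, and Atp5f1d, the delta subunit of the ATP synthase stalk, at -0.25, all with an edgeR adjusted p of 0.514. The 95% interval of the core subunits ran from -0.11 to 0.24 for Atp5f1b, from -0.19 to 0.14 for Uqcrc1 and from -0.10 to 0.59 for Sdha. All BPN/3J Cmpd17b libraries are of batch 1, so this comparison takes its contrast from batch 1 and the batch term of the model.

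The difference of the Cmpd17b effect between strains called no gene (0% of 15543) and no member. No member reached an unadjusted p under 0.05 by edgeR, DESeq2 or limma voom, beside 595, 670 and 736 genes, of which none was called by any of the 3. The median over members was 0.004. The smallest p was that of Ndufb4b, a copy of the complex I subunit gene Ndufb4, at -0.72, followed by Cox4i2 at 0.40, Ndufa11 at 0.23, Cox7b, a small complex IV subunit, at -0.20 and Ndufs7 at 0.20, each with an edgeR adjusted p of 0.917. Ndufb4, Ndufb4b and Ndufb4c had fractional counts in 92.3% or more of the libraries, so the counting shared reads among these copies and their values are uncertain, as are those of Ndufs5 beside Ndufs5-ps and of Cox7c. The drug comparisons share their vehicle libraries with the strain comparison under vehicle, so agreement between them is not separate evidence.

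Transcript length moved with these differences. Among members with transcripts under 600 nt (28 genes), 600 to under 1000 nt (27), 1000 to under 1500 nt (11) and 1500 nt or more (14), the median log2 difference of Cmpd17b against vehicle was -0.18, -0.12, -0.09 and -0.04 in BPH/2J and -0.21, -0.16, -0.04 and 0.003 in BPN/3J. All genes tested in the same length classes gave -0.10, -0.06, -0.03 and 0.01 in BPH/2J and -0.17, -0.14, -0.07 and 0.02 in BPN/3J. Under vehicle, BPH/2J against BPN/3J gave -0.20, -0.16, -0.13 and -0.07 over members and -0.08, -0.07, -0.05 and 0.01 over all genes. Under Cmpd17b the strain difference of members had no such gradient, at -0.14, -0.09, -0.16 and -0.17, beside -0.04, 0.01, -0.004 and 0.01 over all genes. Single libraries also deviated by length. BPH/2J vehicle replicate 7 deviated from its group mean by 0.49 for members under 600 nt and by 0.05 at 1500 nt or more. BPN/3J vehicle replicate 4 deviated by -0.37 and -0.02. Without BPN/3J vehicle replicate 4, the complex I median was -0.21 for Cmpd17b against vehicle in BPN/3J, against -0.16 with it. The part of single libraries in the length gradients was not tested.

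With an offset for transcript length in every library, an alternative chosen after seeing the data, no member was called in either Cmpd17b comparison and the members' medians moved to -0.06 in BPH/2J and -0.01 in BPN/3J. The offset followed each library's deviation from the mean over all libraries used. It therefore also removed group differences that follow length, so part of this move was fixed in advance. Members without a transcript length were given the median length. In the strain comparisons the offset raised the number of members called to 14 each, at 20% of all genes under vehicle and 15.3% under Cmpd17b, and kept the 6 and the 5 members called without it. Under both treatments 8 were called: Atp5f1e (log2 difference -0.34 under vehicle and -0.38 under Cmpd17b), Ndufa4l2 (-0.32 and -0.36), Ndufa3 (-0.28 and -0.41), Cox7a1 (-0.27 and -0.33), Uqcrc1 (-0.21 and -0.24), Ndufa9, a complex I subunit of the ubiquinone-reducing arm (-0.19 and -0.25), Cox8b (-0.18 and -0.24) and Cox8a (0.19 and 0.25), all by edgeR. Their directions were those without the offset, and Cox8a was higher in BPH/2J both times.

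**Figure D5:**
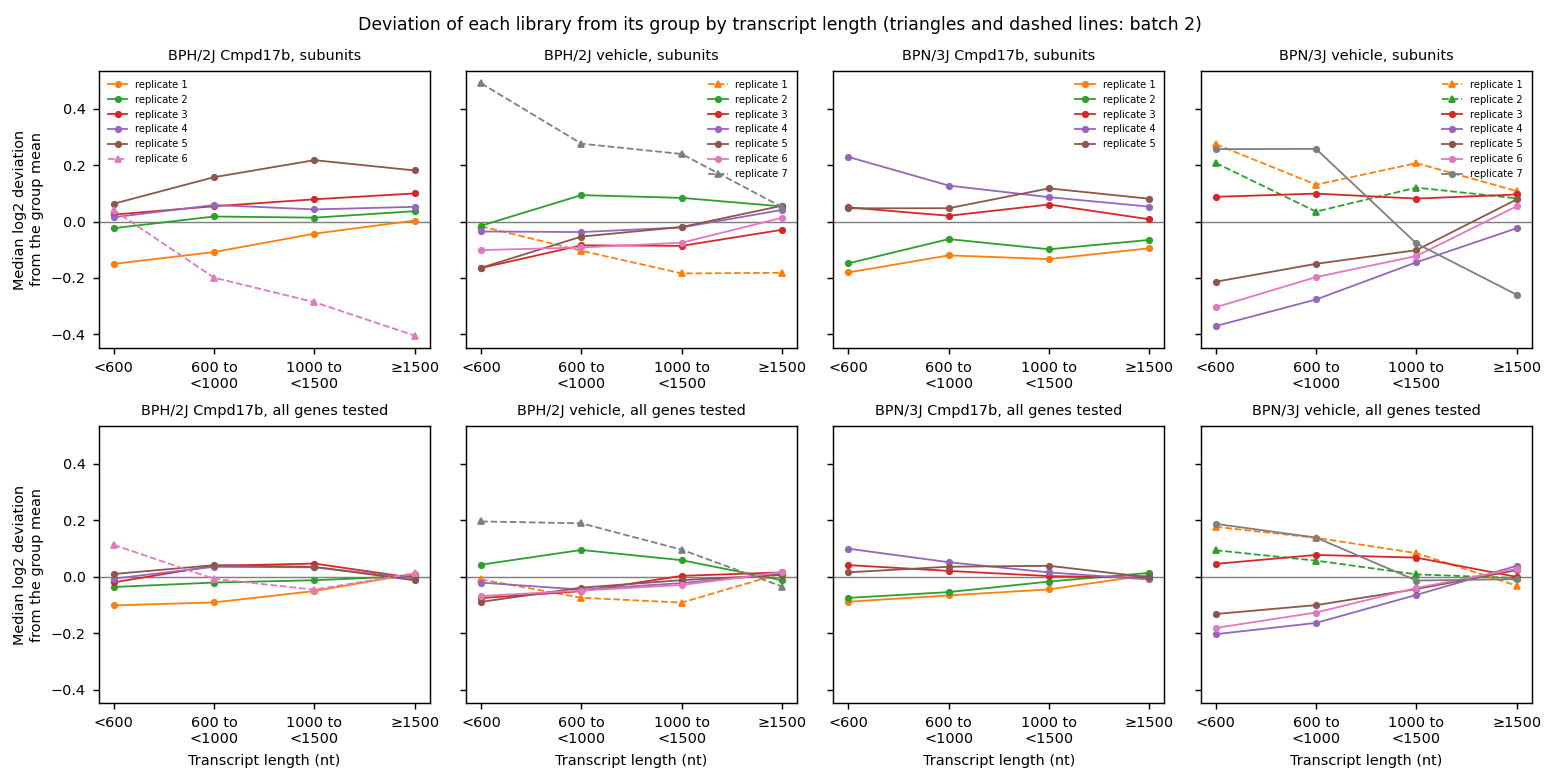
Median log2 deviation of each library from its group mean in 4 classes of transcript length, for the subunits (top row) and all genes tested (bottom row), 1 line per library (dashed for batch 2) and 1 column per group. Among the subunits under 600 nt, BPH/2J vehicle replicate 7 stands at 0.49 and BPN/3J vehicle replicate 4 at -0.37, and among those of 1500 nt or more BPH/2J Cmpd17b replicate 6 stands at -0.40.

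Genes around the chain gave the following counts, from lists of assembly factors, carriers and regulators and with no list member called in a Cmpd17b comparison. Between strains, 18.9% of all genes tested were called under vehicle and 14.1% under Cmpd17b, the background for each count. None of the 13 mtDNA-encoded subunits was called in any comparison by edgeR (3 under vehicle and 2 under Cmpd17b at an unadjusted p under 0.05 between strains). Their median strain differences were -0.11 and -0.12, and their median Cmpd17b differences 0.06 in BPH/2J and 0.09 in BPN/3J. Of 14 tricarboxylic acid cycle genes, none was called between strains (2 and 2 at an unadjusted p under 0.05). Of 9 complex III assembly genes, 3 were lower in BPH/2J under vehicle and 3 under Cmpd17b, none higher. Lyrm7, a chaperone of the Rieske protein, averaged 7.43 CPM in BPH/2J Cmpd17b, 7.61 in BPH/2J vehicle, 16.6 in BPN/3J Cmpd17b and 14.9 in BPN/3J vehicle, with log2 differences of -0.97 under vehicle and -1.16 under Cmpd17b (edgeR adjusted p = 6.59e-07 and 2.74e-07). Uqcc1, which takes part in cytochrome b assembly, averaged 92.3, 92.3, 181 and 161 CPM (log2 differences -0.82 and -0.95, edgeR adjusted p = 4.54e-05 and 4.31e-05).

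Of 16 complex I assembly genes, 1 was called, Ndufaf1, at 35.3, 38.3, 56.0 and 54.9 CPM in BPH/2J Cmpd17b, BPH/2J vehicle, BPN/3J Cmpd17b and BPN/3J vehicle (log2 differences -0.52 under vehicle and -0.66 under Cmpd17b, edgeR adjusted p = 0.000403 and 0.000128). Of 23 complex IV assembly genes tested, 1 was higher and 3 lower in BPH/2J under vehicle, and 2 higher and 2 lower under Cmpd17b. Coa8 was higher both times (log2 differences 0.39 and 0.42), and Cmc2 (-0.46 and -0.35) and Cox11, which delivers copper to complex IV, (-0.34 and -0.40) were lower both times. Tmem242, an assembly factor of the ATP synthase, was lower at -0.48 and -0.49, 1 of 5 genes of its list under vehicle and 1 of 2 called under Cmpd17b. None of the 4 complex II assembly genes was called (1 and 0 at an unadjusted p under 0.05).

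Among 17 electron carrier and ubiquinone genes, 1 was higher and 2 lower under vehicle and 1 higher and 1 lower under Cmpd17b. The hydroxylases of ubiquinone synthesis differed in direction, with Coq7 at 0.29 and 0.30 and Coq6 at -0.38 and -0.36. Of 20 regulators of mitochondrial gene expression, Ppargc1b was higher (0.51) and Mtres1 lower (-0.27) under vehicle, and none was called under Cmpd17b (1 at an unadjusted p under 0.05, edgeR). Ppargc1a was at -0.15 and -0.37 (adjusted p = 0.127 under Cmpd17b), Esrra at -0.11 and -0.20, Nrf1 at -0.13 and -0.04 and Tfam at -0.06 and -0.26. Of 14 carriers and channels, 1 was higher and 2 lower under vehicle and 3 lower under Cmpd17b. Ucp2, an uncoupling protein family member, averaged 38.6, 34.4, 129 and 110 CPM in BPH/2J Cmpd17b, BPH/2J vehicle, BPN/3J Cmpd17b and BPN/3J vehicle (log2 differences -1.67 and -1.69, edgeR adjusted p = 6.04e-10 and 6.96e-09). Of 78 mitochondrial ribosomal protein genes, 5 were higher and 8 lower under vehicle and 3 higher and 3 lower under Cmpd17b, led by Mrpl15 at 80.0, 85.4, 47.3 and 48.8 CPM in the same order (log2 differences 0.81 and 0.75).

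Some cell type markers were called between the strains, beside 18.9% of all genes tested under vehicle and 14.1% under Cmpd17b. A single call in a short list does not show that its cell type moved. Of 3 adipocyte markers tested, 1 was lower in BPH/2J under both treatments, and the 5 listed summed to 18.5 to 24.0 CPM in BPH/2J Cmpd17b, 16.4 to 24.0 in BPH/2J vehicle, 27.5 to 33.3 in BPN/3J Cmpd17b and 25.8 to 42.5 in BPN/3J vehicle. All 4 hepatocyte markers were lower in BPH/2J under vehicle, where they summed to 0.497 to 3.96 CPM, against 0.131 to 511 CPM in BPN/3J vehicle, with replicates 1 and 2 of that group highest. Of 4 T and NK cell markers 1 was higher in BPH/2J under both treatments, of 4 macrophage markers 1 was higher under vehicle, and of 4 mural cell markers 1 was higher under Cmpd17b. Of 6 ventricular cardiomyocyte markers, 1 was lower in BPH/2J under vehicle and none was called under Cmpd17b. Summed atrial markers were 457 to 2550 CPM in BPH/2J Cmpd17b, 329 to 1101 in BPH/2J vehicle, 78.5 to 204 in BPN/3J Cmpd17b and 170 to 878 in BPN/3J vehicle, and 1 of the 2 tested was higher in BPH/2J under both treatments. The library at 2550 CPM was BPH/2J Cmpd17b replicate 6, which had 1256 CPM of fibroblast markers, against 624 to 718 CPM in the rest of its group. The part of these cells in the subunit differences was not tested.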

How the data were processed

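RNA sequencing of polyA RNA from mouse left ventricle (26 libraries, 25 used) was deposited by the authors in the form of estimated counts per gene (expected counts), 2.21% of them not whole beyond a tolerance of 0.01. Trimming by Trim Galore 0.6.7 and alignment by STAR 2.7.9a to GRCm39 are recorded in the submitters' processing notes. The program that counted reads, its strand setting and the gene models were not given in the sources used here. The 86 members and all lists were chosen with earlier results of these data known.

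Counts were rounded and fitted with edgeR 4.0.16 (R 4.3.3): TMM scaling, filterByExpr by group, group and batch terms, glmQLFit (robust) and glmQLFTest, 1 fit over 25 libraries, Benjamini-Hochberg adjustment over 15543 genes, threshold 0.05. The fit was also run on simulated counts with spread estimated from these libraries, but with no batch effect, length trend or outlying library. That run therefore cannot show how the fit handles those features. No 2 libraries of a group were identical: over 73 pairs the lowest chi-square per degree of freedom was 5.56. Isoform ratios used counts with 0.5 added. Transcript lengths are medians of protein-coding transcripts in GENCODE M21 (14372 genes tested). Titles name separate animals, so the spread is between animals. Genes were named by rule: called members, or the 5 with the smallest p, isoform pairs, Ndufa4, Ndufa4l2, Atp5if1, core subunits and up to 4 called genes per list. Ndufs4, Ndufa9, Sdhc, Sdhd, Ppargc1a, Esrra, Nrf1 and Tfam were named outside it after their values were seen. Alternatives were DESeq2 1.42.0, limma 3.58.1 voom, RLE scaling, scaling without mtDNA-encoded genes, other filters, no batch term, single batches, the 2 compared groups alone, all 26 libraries, each library left out, and a length offset (lowess, span 0.3). One member gene is not reported here by name. Antisense or overlapping genes could not be separated without a known strand setting.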

Additional observations from a re-analysis of the deposited data

Results flagged for a closer look

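Libraries standing apart were sought in 76 sets of values (summed CPM, isoform ratios and called members in each group), and 10 were found. About 1 in 20 groups shows one by chance, or about 3.8 if the sets were separate. They were not separate, since the complex sums include the called members, and both batches were pooled within groups. An excess over chance was therefore not tested. BPH/2J vehicle replicate 7, of batch 2, was the high library in 7 of the 10. It had 11793 CPM summed over complex I and 9115 CPM over complex IV, and it led its group in CPM for Atp5f1e (433), Ndufb5 (407), Ndufc2 (164), Ndufa3 (149.9) and Cox8a (94.5). Without it, 18 members (20.9%) were called between strains under vehicle beside 18% of all genes, against 6 members (6.98%) beside 18.9% with it. BPN/3J vehicle replicate 7 was low in complex II, at 1443 CPM summed. BPH/2J Cmpd17b replicate 6 was low in Uqcrc1, at 744 CPM. BPN/3J Cmpd17b replicate 5 had the lowest log2 ratio of Cox4i2 to Cox4i1 of its group, at -8.32.

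In the left-out library, BPH/2J Cmpd17b replicate 7, 69 of the 86 members were below and 3 above every other library. The 3 were Cox6a1, Cox8a and Atp5if1, named after their values were seen; Cox6a1 and Cox8a are ubiquitous isoforms.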

How the results depend on the processing

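In both Cmpd17b comparisons and in their difference between strains, members called stayed at 0 under all alternatives; genes called were 122 in BPH/2J in batch 2 alone, where the Cmpd17b arm has 1 library assumed to vary like the others, and 1 in BPN/3J with DESeq2. With all 26 libraries the strain comparisons called 0 members each, beside 1492 genes under vehicle and 1195 under Cmpd17b.

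Members called under vehicle (6) became 13 without BPH/2J Cmpd17b replicate 6 and BPN/3J vehicle replicate 7, 11 with DESeq2, 3 with no batch term, 2 in batch 1 alone, 0 in batch 2 alone (1130 genes), 2 with the compared groups alone and 14 with the length offset. Those under Cmpd17b (5) became 8 without the same 2 libraries, 9 with DESeq2, 14 with limma voom (3405 genes), 2 with no filter, 0 with no batch term, 2 in batch 1 alone, 13 with the compared groups alone and 14 with the length offset; batch 2 holds no BPN/3J Cmpd17b library. Leaving out 1 library at a time gave 2 to 18 members under vehicle (18, 14 and 11 without BPH/2J vehicle replicate 7 and BPN/3J vehicle replicates 4 and 6; 3 without BPH/2J vehicle replicate 1 or 5 or BPN/3J vehicle replicate 3; 2 without BPH/2J vehicle replicate 6 or BPN/3J vehicle replicate 1) and 1 to 6 under Cmpd17b (1 without BPH/2J replicate 6 or BPN/3J replicate 5; 2 without BPH/2J replicate 4 or BPN/3J replicate 3 or 4; 3 without BPH/2J replicate 1 or 2 or BPN/3J replicate 2). The cause was not tested.

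The calls of Ndufa3 and Ndufa4l2 under vehicle and of Ndufa3 under Cmpd17b held with each library left out, but all calls ended with all 26 libraries and, under vehicle, in batch 2 alone. Under vehicle those of Ndufa3 (log2 difference -0.22, adjusted p = 0.0562), Ndufa11 (0.0708) and Atp5f1e (0.149) ended with limma voom, and those of Ndufa3 (0.0524), Ndufa11, Atp5f1e and Ndufb5 (up to 0.0978) with the compared groups alone. With no batch term those of Uqcrc1, Atp5f1e and Ndufb5 under vehicle (up to 0.141) and of all 5 members under Cmpd17b (0.052 for Ndufs3 to 0.228 for Ndufc2; Ndufa3 0.0708) ended. With no filter those of Uqcrc1 and Ndufb5 under vehicle and of Ndufa4l2, Cox8a and Ndufs3 under Cmpd17b ended (0.0525 to 0.104). That of Cox8a ended with RLE scaling (0.0503), that of Ndufa4l2 under Cmpd17b with a filter of 1 CPM (0.0536), and that of Atp5f1e without the 2 libraries named above (0.104). Under vehicle that of Uqcrc1 ended without BPH/2J replicate 4 or 6 or BPN/3J replicate 1 or 2 (adjusted p up to 0.0633), that of Ndufa11 without BPH/2J replicate 1, 5 or 6 or BPN/3J replicate 1 or 3 (up to 0.0639), that of Atp5f1e without BPH/2J replicate 1, 3, 5 or 6 or BPN/3J replicate 1, 3 or 7 (up to 0.0953) and that of Ndufb5 without BPH/2J replicate 1, 3, 4, 5 or 6 or BPN/3J replicate 1, 2 or 3 (up to 0.0975). Under Cmpd17b that of Ndufc2 ended without BPH/2J replicate 2 or 6 or BPN/3J replicate 4 or 5 (up to 0.0902), that of Ndufs3 without BPH/2J replicate 1, 3, 4 or 6 or BPN/3J replicate 3, 4 or 5 (up to 0.0992), that of Cox8a without BPH/2J replicate 3, 4, 5 or 6 or BPN/3J replicate 1, 2, 3 or 5 (up to 0.134) and that of Ndufa4l2 without BPH/2J replicate 1, 2, 4, 5 or 6 or BPN/3J replicate 2, 3, 4 or 5 (up to 0.118), by edgeR.

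Isoform ratios follow as log2 differences. With all 26 libraries, Cmpd17b against vehicle in BPH/2J was -0.92 for Cox7a1 to Cox7a2, -1.88 for Cox6a2 to Cox6a1, -1.93 for Cox8b to Cox8a and -0.18 for Cox4i2 to Cox4i1, reversed from 0.10. With no strata, Cmpd17b against vehicle in BPN/3J was -0.10 for Cox7a1 to Cox7a2 and -0.20 for Cox8b to Cox8a, and the strain difference of Cox8b to Cox8a was -0.38 under vehicle and -0.39 under Cmpd17b (exact permutation, adjusted p = 0.215 and 0.103). In batch 1 alone the strain differences were -0.34 (Cox7a1 to Cox7a2, Cmpd17b), -0.34 (Cox8b to Cox8a, vehicle) and -0.46 (Cox8b to Cox8a, Cmpd17b), none called; those under Cmpd17b use batch 1 in any case. Leaving out 1 library gave, between strains under vehicle, -0.16 to 0.0019 (Cox4i2 to Cox4i1, reversed without BPN/3J replicate 7) and 0.21 to 0.29 (Cox6a2 to Cox6a1, called without BPH/2J replicate 6 or BPN/3J replicate 4). Between strains under Cmpd17b it gave 0.14 to 0.31 (Cox4i2 to Cox4i1), -0.059 to 0.071 (Cox6a2 to Cox6a1), -0.38 to -0.31 (Cox7a1 to Cox7a2, called in 7 of 11) and -0.52 to -0.40 (Cox8b to Cox8a, called in 6 of 11). For Cmpd17b against vehicle it gave -0.24 to 0.0012 (Cox4i2 to Cox4i1, BPN/3J, reversed without vehicle replicate 7), -0.034 to 0.093 (Cox8b to Cox8a, BPN/3J) and -0.21 to -0.14 (Cox7a1 to Cox7a2, BPH/2J, called without vehicle replicate 2).

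No paired analysis was possible because the labels give the groups no shared replicate numbers. Depth limits mainly the lowest members, such as Ndufb4b.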
